A study of Mus musculus with 21 samples.

Results

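The peaks described here are the p53 binding sites that were annotated to a promoter or a 5' UTR and overlapped no LTR repeat, the class of long terminal repeats left by endogenous retroviruses. They were chosen by joining the authors' feature annotation and repeat annotation of their WT-specific p53 peaks, and they number 304 of 2127, with 270 in the promoter class and 34 in the 5' UTR class. The study used CUT&RUN, in which an antibody on permeabilised cells directs a nuclease to cut the DNA next to the bound protein. The p53 antibody was used on 2 samples of KO cells (Trp53-/-) and 2 samples of WT cells (Trp53+/+). Both were ID8 cells, an immortalised mouse ovarian surface epithelial line of C57BL/6 origin, untreated and growing asynchronously. The labels do not state whether the KO line is 1 clone. The study's other 17 samples, 16 for 4 histone modifications and 1 with IgG, were not analysed here. Peaks are deposited as 1 list per genotype, 9784 peaks in KO cells and 6811 in WT cells, as mm10 intervals with no height or p-value. There is therefore no replicate check, read depth is unknown, and the length of a peak is the only value it carries. A peak list holds no RNA level, so the labelled cell type could not be checked against its markers. None of the 10 ovarian surface epithelial and epithelial marker genes listed for that purpose, and none of 10 leukocyte markers, was named at one of the 304 peaks.

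The transcription factor p53 is kept scarce in unstressed cells, mainly by the ubiquitin ligase Mdm2, and accumulates after DNA damage and other stress. It binds DNA as a tetramer, at a site made of a pair of adjacent half-sites that each have a C and a G in the core, and it activates genes of cell cycle arrest, cell death, DNA repair and metabolism. Many of its sites in such genes lie close to the start of transcription or in the first intron, and others lie in repeats far from genes. KO cells are labelled as lacking both copies of Trp53, so the KO list is the background of the same assay.

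The letters of a p53 site could be read in the promoter windows of RefSeq (assembly GRCm38.p6, the assembly behind mm10), which run from 250 bases before to 50 after a gene's transcription start site (TSS). A p53 site was taken as 2 half-sites of the published consensus with no spacer, at most 3 of 20 letters off, and none off in the C and G of either core. The half-site consensus is its own reverse complement, so a search of 1 strand covers both. The sites below are those with 1 or 2 letters off in a promoter window that overlapped the named gene's own peak, together with the sites of the cell death genes Aen and Bbc3, which had 3 letters off. The sites with 1 or 2 letters off are shown because they were the closest matches to p53's letters, and those of Aen and Bbc3 because of the part of these genes in cell death. Other sites with 3 letters off, that of Trp53 among them, are described below but not printed. Each is given 5' to 3' on the gene's strand with mm10 coordinates, the 20 letters of the site are in capitals, and 5 flanking bases stand in lower case on each side.

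Cdkn1a, chr17:29090923-29090952, plus strand: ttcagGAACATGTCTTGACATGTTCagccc

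Ccng1, chr11:40755457-40755486, minus strand: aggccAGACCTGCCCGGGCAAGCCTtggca

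Ckap2, chr8:22185998-22186027, minus strand: tctgaAGACATGTCCTGACTTGTCAagcct

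Aen, chr7:78895932-78895961, plus strand: aagccGGGCTTGTCCGGGCAAGGAGcttcc

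Bbc3, chr7:16309481-16309510, plus strand: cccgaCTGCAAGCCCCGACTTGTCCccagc

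Rps27l, chr9:66946291-66946320, plus strand: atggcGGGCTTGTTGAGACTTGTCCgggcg

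Calhm2, chr19:47138446-47138475, minus strand: ctggaGGGCAAGCCTAGGCAAGATCtcctt

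Prkar1a, chr11:109649357-109649386, plus strand: cttcaGAACACGACCGGGCATGCTCagtgc

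Rps19, chr7:24884798-24884827, plus strand: gcgagCGGCAGGCCCGGACATGCCTgatcg

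Zfp365, chr10:67912701-67912730, minus strand: tagcaAGACTAGGCTGGGCAAGACTggcac

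Of these, Cdkn1a, Ccng1, Rps27l and Calhm2 had 1 letter off, and Ckap2, Prkar1a, Rps19 and Zfp365 had 2. Cdkn1a encodes p21, the inhibitor of cyclin-dependent kinases that carries much of p53's arrest of the cell cycle, and its site was centred 41.5 bp upstream of the TSS at position 29090979. A second RefSeq start of Cdkn1a, at position 29093769, lay in the longer of the 2 Cdkn1a peaks and had no such site in its window. The site of Ccng1, the gene of cyclin G1, was centred 185.5 bp upstream of its TSS. Ckap2 encodes a protein of the mitotic spindle, and its site was centred 193.5 bp upstream. Aen encodes a nuclease of apoptosis and had its site 19.5 bp downstream of the TSS. The site of Bbc3, which encodes the BH3-only protein Puma, was centred 87.5 bp upstream of the TSS. Rps27l, a ribosomal protein gene that is a p53 target in human cells, had its site 107.5 bp upstream. Rps19 encodes a ribosomal protein of the small subunit, Prkar1a a regulatory subunit of protein kinase A, and Calhm2 a member of the calcium homeostasis modulator family. Their sites were centred 100.5 bp upstream, 8.5 bp downstream and 166.5 bp upstream of the TSS for Rps19, Prkar1a and Calhm2. Each distance here is to a start whose window held the site, and some genes have other starts. Rps27l also has a start at 66946086, and Rps19 has starts at 24884592 and 24884676, all of them upstream of the site. Aen also has a start at 78896058, downstream of its site. Bbc3 and Prkar1a have further starts too. All 10 printed sites lay inside the peak of their gene. They did not all lie at its middle: the distance from the peak's midpoint was 9.5 bp for Zfp365 and 17.5 bp for Prkar1a, against 308 bp for Cdkn1a and 320 bp for Aen.

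In all, 17 of the 85 genes whose own promoter window overlapped one of the 304 peaks had a p53 site there. By window, the share was 18 of 98, 18.4% (95% exact binomial interval 11.3 to 27.5), against 453 of all 32851 RefSeq windows, 1.38% (1.26 to 1.51). Windows at other WT-specific peaks had a site in 5 of 30 cases, 16.7% (5.64 to 34.7), an interval that takes in the share at the 304 peaks. Windows at peaks of the KO list had a site in 13 of 1020 cases, 1.27% (0.680 to 2.17), and windows at WT peaks that overlapped a KO peak in 7 of 447, 1.57% (0.632 to 3.20). Both of these intervals take in the share over all windows. With at most 2 letters off, the share was 8.16% (3.59 to 15.5) at the 304 peaks and 0.326% over all windows, and none of the 447 windows at WT peaks with a KO peak had such a site. With 4 letters off allowed, the shares were 24.5% at the 304 peaks and 4.80% over all windows. A window without a match says only that these letters were not in it, and sequence outside the windows was not searched. The windows of Mdm2, Bax, Btg2, Plk2, Phlda3, Ei24, Eda2r and Ddit4, all genes with a peak described below, had no match.

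**Figure D1:**
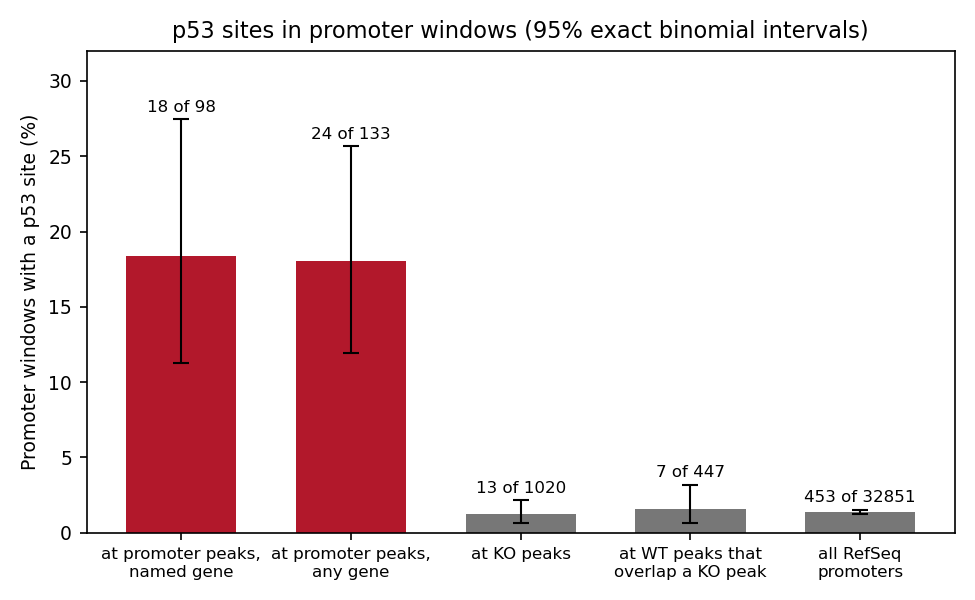
Share of RefSeq promoter windows (percent, bars start at 0) that hold a p53 site with at most 3 of 20 letters off, at the 304 peaks for the named gene (18 of 98) and for any gene (24 of 133), at KO peaks, at WT peaks that overlap a KO peak and over all windows, with 95% exact binomial intervals as error bars. The windows of the named genes stand at 18.4%, and those at KO peaks, at WT peaks with a KO peak and over all windows between 1.27 and 1.57%. Windows at other WT-specific peaks, 5 of 30 or 16.7%, are not shown.

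The other 7 genes with a site in a window at their own peak each had 3 letters off. They were Trp53 itself, Trim32, which encodes a ubiquitin ligase, Inpp5b, an inositol phosphatase gene, Idi1, an isomerase gene of isoprenoid synthesis, Agap1, Dhx35 and the histone H2B gene H2bc22. The sites of Dhx35 and Trp53 lay in the window but outside the peak, and the remaining 15 of the 17 lay inside it. The median distance between site and peak midpoint was 101.5 bp, and 14 of the 17 sites were centred upstream of the TSS whose window held them. The window reaches 250 bases upstream and only 50 downstream, so most positions searched are upstream and this count says nothing about placement. Sites were found at 6 of 21 genes of the p53 lists described below, 28.6% (11.3 to 52.2), and at 11 of 64 other genes, 17.2% (8.90 to 28.7), with overlapping intervals.

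**Figure D2:**
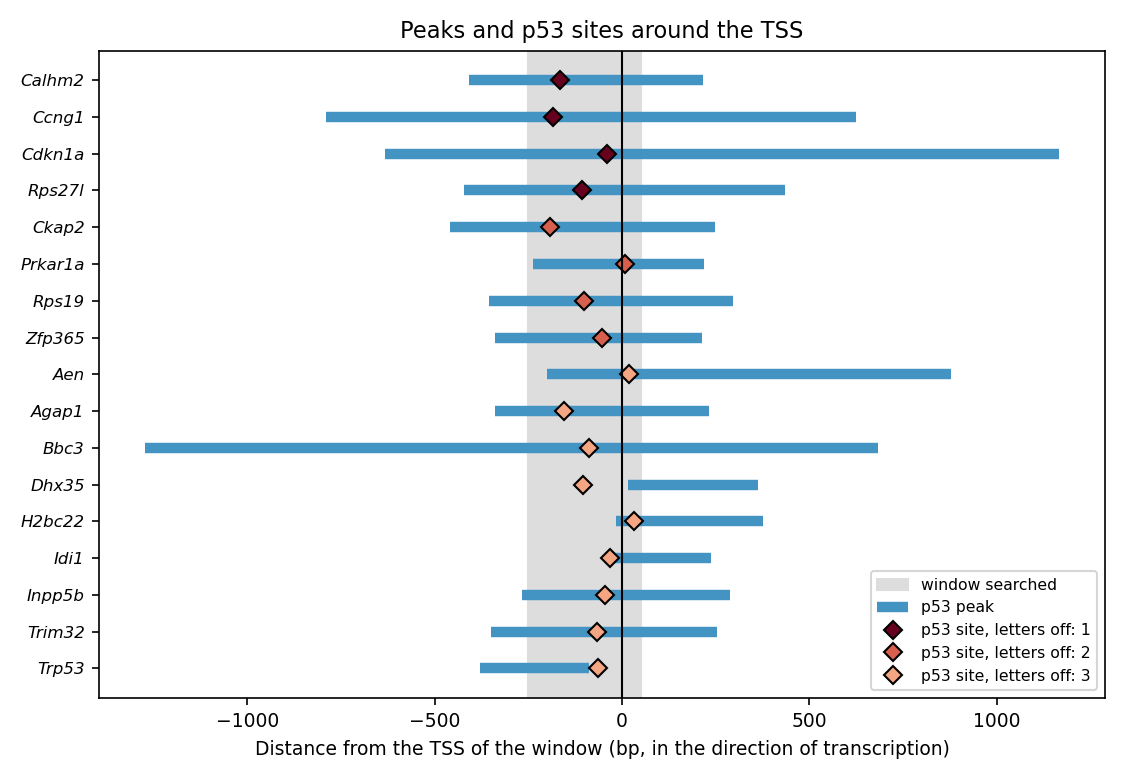
Position of the TSS, the peak and the p53 site for the 17 genes with a site in a promoter window that overlapped their own peak. Distances are in bp along the gene from a TSS whose window held the site. Lines are peaks, diamonds are sites coloured by letters off, and the grey band is the window searched; 15 of the 17 sites lie inside their peak.

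The windows at the 304 peaks were GC-rich. Their median GC content was 61.2% (59.3 to 64.7), against 58.7% at KO peaks, 58.3% (57.3 to 59.3) at WT peaks with a KO peak and 52.7% over all windows. They held a median of 21 CpG (19 to 23), against 19, 18 (17 to 19) and 7 in the same order. The GC box GGGCGG, read on both strands, was in 59.2% of them (48.8 to 69.0), in 52.8% of windows at KO peaks, in 47.4% (42.7 to 52.2) at WT peaks with a KO peak and in 35.7% of all windows. CCAAT was in 41.8% of the windows at the 304 peaks, against 35.5%, 33.3% and 37.4% in the same order. The TATA box TATAAA was in 7.14% (2.92 to 14.2), against 9.12%, 9.17% and 13.6%. A single exact half-site was in 18.4% (11.3 to 27.5), against 8.14%, 8.50% (6.09 to 11.5) and 8.36%. The 30 windows at other WT-specific peaks were unlike these. Their median GC content was 50.7% (46.0 to 54.3), with a median of 5 CpG (4 to 13), and 6 of the 30 held the GC box. CCAAT was in 56.7% of them (37.4 to 74.5), the TATA box in 16.7% (5.64 to 34.7) and an exact half-site in 33.3% (17.3 to 52.8), an interval that overlaps that of the 304 peaks. GC content and CpG number were thus above those of all windows at the 304 peaks and in both groups with a KO peak, but not at the other WT-specific peaks. The part of base composition in the share of p53 sites was not tested.

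Of 157 RefSeq genes in 8 lists of p53 functions, 33 were named at one of the 304 peaks, 21.0%, against 210 of 49997 RefSeq genes, 0.42%. These lists hold genes picked as p53 targets and were written with earlier results of these data known, so their share is a description and not independent evidence. The 33 genes had 38 peaks, 1 of which overlapped a KO peak. A further 16 listed genes had WT-specific peaks only in other features or with an LTR. The 38 peaks were long: their median was 951 bp (95% order-statistic interval 553 to 1282), against 461 bp (420 to 504) for the other 266 peaks. Over 1000 bp long were 18 of the 38, against 23 of the 266. Length measures how far the called signal extends and is not a height.

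**Figure D3:**
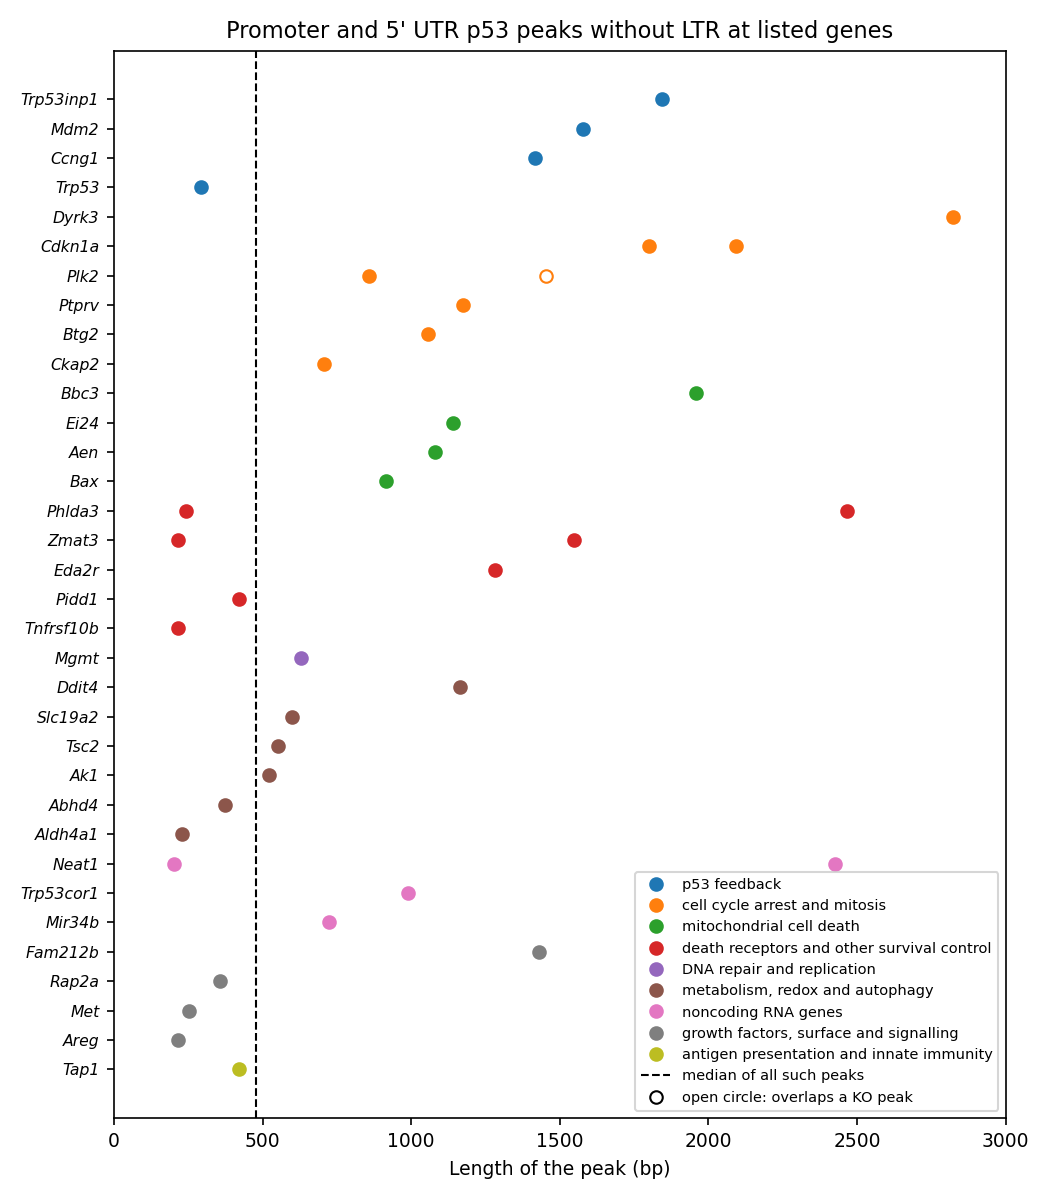
Length (bp) of each of the 38 peaks at genes of the p53 lists, and of the peak at Tap1 from the immunity list, coloured by gene group, with the median of all 304 peaks, 479 bp, as a line. Open circles mark a peak that overlaps a KO peak, which here is the 1454 bp peak of Plk2; Dyrk3, Phlda3, Neat1 and Cdkn1a had the longest peaks.

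The feedback loop of p53 was marked at 4 of 10 genes. Mdm2, the ligase that degrades p53, had a peak of 1579 bp (chr10:117709250-117710828) whose midpoint lay 719 bp downstream of a TSS. The p53-responsive promoter of this gene is known to lie in its first intron. Ccng1 had 1415 bp (chr11:40754661-40756075), with its midpoint 82 bp upstream of the TSS. Trp53inp1, whose product takes part in autophagy and cell death, had 1842 bp (chr4:11154826-11156667). These 3 peaks exceeded 1000 bp, while the peak at Trp53 itself was 293 bp (chr11:69579979-69580271). That peak overlapped the windows of both Trp53 and its antisense neighbour Wrap53, and the nearest KO peak was 52191 bp away. Strand is not part of a peak, so the 2 genes cannot be told apart there. Mdm4, the partner of Mdm2, had a WT-specific peak outside these classes.

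Cell cycle and mitosis genes gave 6 of 18. Cdkn1a had 2 separate peaks, 1800 bp (chr17:29090346-29092145) and 2094 bp (chr17:29093503-29095596), with a gap of 1357 bp, and each covered a RefSeq TSS of the gene. Plk2, a polo-like kinase gene, also had a pair, 858 bp (chr13:110392460-110393317) and 1454 bp (chr13:110394540-110395993). The longer of the Plk2 peaks overlapped a KO peak over 329 bp. The longest of all 304 peaks was at Dyrk3, a kinase gene, with 2822 bp (chr1:131138037-131140858) and its midpoint 1213.5 bp upstream of the TSS. Btg2, an antiproliferative gene, had 1056 bp (chr1:134079080-134080135), and Ptprv, a tyrosine phosphatase gene, had 1173 bp in the 5' UTR class (chr1:135129296-135130468). Ckap2 had 707 bp (chr8:22185571-22186277). Every gene of this group thus had a peak longer than the median of the 304, while Btg1, Gtse1 and Psrc1 had WT-specific peaks elsewhere only.

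Among genes of mitochondrial cell death, 4 of 18 had a peak. Bbc3 had 1957 bp (chr7:16308310-16310266). Bax, which encodes a pore-forming protein of the outer mitochondrial membrane, had 914 bp (chr7:45465964-45466877), with the midpoint 477.5 bp downstream of the TSS. Aen had 1080 bp (chr7:78895727-78896806), and Ei24, which encodes a membrane protein of the endoplasmic reticulum, had 1139 bp (chr9:36796480-36797618). The 4 peaks were 914 bp or longer, and none overlapped a KO peak. Bcl2l1 and Bcl2l11 had WT-specific peaks elsewhere only, and the other 12 genes of the list, Pmaip1, Apaf1 and Perp among them, had none by name.

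Death receptors and other survival genes gave 5 of 12, with lengths that spread widely. Phlda3, whose product opposes Akt signalling, had peaks of 2465 bp (chr1:135765243-135767707) and 244 bp (chr1:135764273-135764516), 726 bp apart. Zmat3, an RNA-binding protein gene, had 1549 bp (chr3:32363689-32365237) and 216 bp (chr3:32365754-32365969), 516 bp apart. In both genes a long peak was accompanied by a short one. Eda2r, a receptor of the tumour necrosis factor family, had 1282 bp on chromosome X (chrX:97376100-97377381). The death receptor gene Tnfrsf10b had 216 bp (chr14:69767510-69767725), and Pidd1, which encodes the scaffold of the PIDDosome, had 420 bp (chr7:141443116-141443535).

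Metabolic genes gave 6 of 28. Ddit4, an inhibitor of mTORC1 signalling, had the longest peak of the group, 1163 bp (chr10:59950887-59952049). Slc19a2, a thiamine transporter gene, had 600 bp (chr1:164249483-164250082), and Tsc2, whose product restrains mTORC1, had 553 bp in the 5' UTR class (chr17:24604672-24605224). Ak1, an adenylate kinase gene, had 521 bp (chr2:32629429-32629949), Abhd4, a lipid hydrolase gene, 373 bp (chr14:54259456-54259828), and Aldh4a1, a gene of proline breakdown, 229 bp (chr4:139622857-139623085). Their median of 537 bp was near that of all 304 peaks, 479 bp. Growth factor, surface and signalling genes gave 4 of 31, with a median of 305 bp. In that group Inka2, annotated under its older name Fam212b, had 1430 bp (chr3:105704486-105705915), and the others were shorter, with 357 bp at the small GTPase gene Rap2a, 253 bp at the receptor gene Met and 217 bp at the growth factor gene Areg.

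DNA repair genes gave 1 of 20, the alkylguanine repair gene Mgmt (chr7:136894580-136895208, 629 bp). Ercc5 had a WT-specific peak elsewhere only, and Xpc, Ddb2, Polh and Rrm2b had none by name. Antigen presentation and innate immunity gave 1 of 23, Tap1, the peptide transporter of the class I pathway, with 420 bp (chr17:34187895-34188314). The immunity list is not one of the p53 lists. These shares, 5.00% and 4.35%, rest on 1 gene each and lay above the 0.42% of all RefSeq genes. They lay below the shares of the remaining p53 lists, which ran from 12.9% to 41.7%, and no difference between groups was tested.

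Noncoding RNA genes gave 3 of 20. Trp53cor1, which encodes lincRNA-p21 next to Cdkn1a, had 988 bp (chr17:29078487-29079474). Neat1, the scaffold RNA of nuclear paraspeckles, had 2 peaks in the 5' UTR class, of 2424 bp (chr19:5837459-5839882) and 201 bp (chr19:5832174-5832374). The promoter of the Mir34b gene had 725 bp (chr9:51105571-51106295), 1926 bp from Mir34b and 2461 bp from Mir34c, which are known to be made from 1 transcript. The peak nearest to the related Mir34a, 1541 bp long and annotated to RP23-169H13.4 (chr4:150048256-150049796), lay 18658 bp away. Mir25, outside the lists, had a peak of 213 bp (chr5:138165045-138165257). The mature sequences from RefSeq (GRCm38.p6) are shown because miRNAs act through their seed, bases 2 to 8, in capitals, and some arms of the miR-34 genes share a seed.

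mmu-miR-34b-5p: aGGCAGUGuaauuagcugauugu

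mmu-miR-34a-5p: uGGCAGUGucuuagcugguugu

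mmu-miR-34b-3p: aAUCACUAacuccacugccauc

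mmu-miR-34c-3p: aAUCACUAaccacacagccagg

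mmu-miR-25-3p: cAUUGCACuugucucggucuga

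The 5' arms of miR-34b and miR-34a have the seed GGCAGUG, the 3' arms of miR-34b and miR-34c have AUCACUA, and the seed of miR-25-3p, AUUGCAC, is unlike either. The 3' arm of miR-34a, not printed, has a different seed, AUCAGCA.

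Across all 304 peaks the median length was 479 bp (434 to 523), with quartiles of 279 and 678.5 bp and a range from 191 to 2822 bp. Promoter peaks and 5' UTR peaks differed little in the median, at 508 bp (379 to 718) for the 34 in the 5' UTR class against 479 bp (431 to 521) for the 270 in the promoter class. The other 1823 WT-specific peaks had a median of 452 bp (442 to 463), and those of them without an LTR 394 bp (378 to 410). The upper tail was wider: 41 of the 304, 13.5% (9.86 to 17.8), exceeded 1000 bp, against 115 of 1823, 6.31% (5.24 to 7.52). Promoter and 5' UTR peaks with an LTR, 68 in number, exceeded 1000 bp in 16.2% of cases (8.36 to 27.1). The 1000 bp limit was chosen after the lengths were seen.

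**Figure D4:**
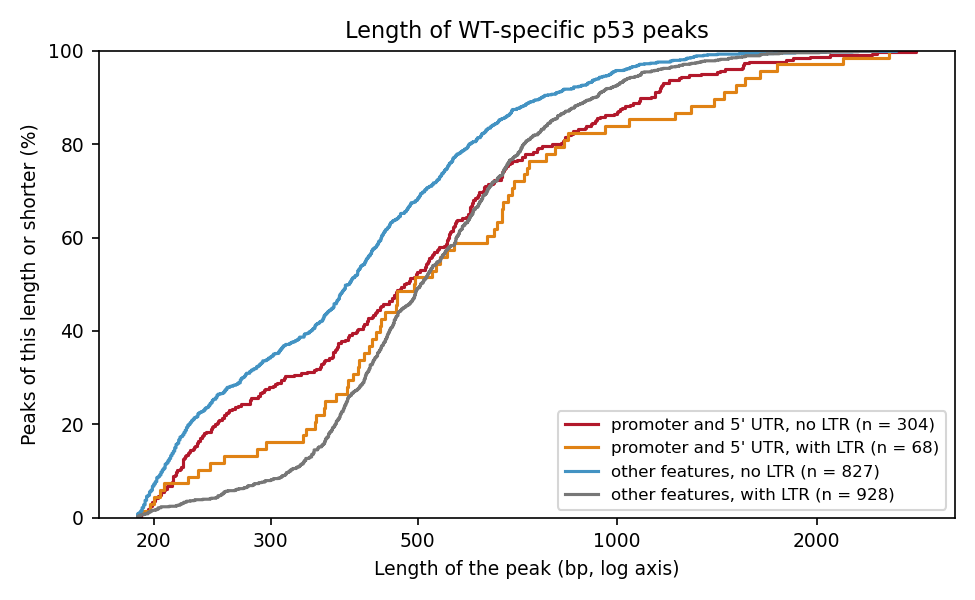
Cumulative share of peaks by length (bp, log axis) for the 304 promoter and 5' UTR peaks without LTR, the 68 with LTR, and the peaks in other features without or with LTR. Above 1000 bp the 2 promoter and 5' UTR curves run lowest, with 13.5% of the 304 and 16.2% of the 68 exceeding that length.

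The 10 longest peaks were at Dyrk3, Phlda3, Neat1, Cdkn1a with both of its peaks, Bbc3, Trp53inp1, Mdm2, RP23-244C22.5 (1556 bp, chr11:94133550-94135105) and Zmat3, so 9 of the 10 were at genes of the p53 lists. Outside the lists, 23 peaks exceeded 1000 bp. Examples, named after their values were seen, are Glipr1 with 1547 bp (chr10:111995810-111997356), the signalling adaptor gene Traf4 with 1199 bp (chr11:78165655-78166853) and Lif, the gene of leukaemia inhibitory factor, with 1160 bp (chr11:4266523-4267682). At the other end, the autophagy gene Atg9b, the acetyltransferase gene Kat5 and Scap, a gene of sterol sensing, had 191 bp each. Zranb1 followed with 192 bp, and Izumo4 and Akna with 196 bp. In 6 genes 2 of the 304 peaks carried the same name, namely Cdkn1a, Plk2, Phlda3, Zmat3, Neat1 and RP23-359C9.3, and the pairs of the first 4 lay within 5 kb.

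Whether a WT-specific peak had a KO peak at the same place was compared within the WT-specific list. Its authors chose that list as WT-specific, so a low share with a KO peak comes with the choice. Of all 6811 WT peaks, 4043 overlapped a KO peak. The tests here therefore compare only the overlaps that this choice left. A KO peak overlapped 14 of the 304, 4.61% (2.54 to 7.61), against 57 of the other 1823, 3.13% (2.38 to 4.03), and 3.34% of the whole WT-specific list. The odds ratio was 1.50, and the difference was not significant by Fisher's exact test over peaks, two-sided (p = 0.225, Benjamini-Hochberg adjusted over 2 tests to 0.38). Against only the longer KO peaks, those from the median KO length up, the odds ratio was 2.44 with an unadjusted p of 0.0498 by the same Fisher's exact test. The other 1823 peaks include those with an LTR. Among the 827 of them without an LTR, 45 overlapped a KO peak, 5.44% (4.00 to 7.21), a share above that of the 304. Among the 68 promoter and 5' UTR peaks with an LTR, the share was 0% (0 to 5.28). No odds ratio was computed against either set. None of the 34 peaks in the 5' UTR class, 0% (0 to 10.3), and 14 of 270 in the promoter class, 5.19% (2.86 to 8.55), overlapped a KO peak, and that difference was not significant either (Fisher's exact test, p = 0.38, adjusted 0.38). The median distance from the other 290 peaks to the nearest KO peak was 67249.5 bp.

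Of the 14, 10 lay off chromosome Y. Besides Plk2 they were Rin1, a Ras effector gene (932 bp, with 380 bp shared), Ubl3, a ubiquitin-like protein gene (1016 bp, 216 bp shared), Fbxl20 (756 bp, 384 bp shared), the locus Gm24877 (726 bp, 221 bp shared), Gtf3a, which encodes transcription factor IIIA (599 bp, 241 bp shared), and Blcap (470 bp, 450 bp shared). The histone gene Hist1h2bp had 392 bp with 216 bp shared, and the clone-named RP23-42D10.2 and RP24-88J19.1 had 673 and 1081 bp with 318 and 459 bp shared. The remaining 4 were on chromosome Y, where KO overlap reached 4 of 19 peaks, 21.1% (6.05 to 45.6). Without chromosome Y, 10 of 285 overlapped a KO peak, 3.51% (1.70 to 6.36).

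In the full lists, peaks on promoters were found without a KO peak less often than peaks elsewhere. Of the 521 WT peaks on a RefSeq promoter window, 176 had no KO peak, 33.8% (29.7 to 38.0), against 2592 of 6290 off such windows, 41.2% (40.0 to 42.4), and 40.6% of all WT peaks (odds ratio 0.728, Fisher's exact test, two-sided, p = 0.000968). A promoter window was overlapped by 804 of the 9784 KO peaks, 8.22% (7.68 to 8.78). Of the 304 peaks, 109 overlapped a window, 35.9% (30.5 to 41.5). These were chosen by their promoter or 5' UTR annotation, so the rule raises this share and it cannot be set against that of the KO list.

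Position could be measured for the 174 peaks whose named gene had a TSS among the promoter windows used. These windows do not hold every RefSeq gene: Zmat3, Trp53inp1 and Rb1 are among the named genes without one. In the promoter class, 156 peaks had a median offset of 16 bp upstream of the TSS (an offset of -16 bp, quartiles -493 and 314), with 77 midpoints downstream and 79 upstream. A midpoint lay within 500 bp of the TSS in 98 of them and within 1000 bp in 128, 82.1%, and the TSS itself fell inside 45 peaks. Peaks of listed genes lay on either side: the midpoint was 452.5 bp upstream at Btg2 and 295 bp upstream at Bbc3, but 302 bp downstream at Ddit4, 285 bp downstream at Ei24 and 468.5 bp downstream at Eda2r. The 4 peaks beyond 5000 bp included Lif, at 9534.5 bp downstream, and Ccdc58 and Fat1, at 9170 and 14745 bp upstream. The windows do not hold every start of a gene either. The Ccdc58 peak begins at 36071669, beside the start of its gene at 36071660. The Fat1 peak begins at 44935038, inside a gene that starts at 44933100. Such offsets are therefore to the nearest start among the windows used.

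The 5' UTR class lay elsewhere. All 18 of its peaks with a TSS had their midpoint downstream, at a median of 25296 bp, and 13 were more than 5000 bp away. The nearest were Slc41a2 at 624 bp and Sulf2, a sulfatase gene, at 940 bp. The farthest was Cemip, a gene of hyaluronan breakdown, at 133686 bp, and Tsc2 lay at 27679 bp. A 5' UTR can be split by long introns or belong to a later start, and only starts among the windows used were measured, so these distances do not say which transcript the annotation meant. Some of these peaks lay near the 3' end of the named gene. On the minus strand, Fbf1 ends at 116142285 and its peak begins at 116142870. Hnf4aos, also on the minus strand, ends at 163493804 and its peak begins at 163493953. Neat1, Wt1os and Hnf4aos are lncRNA genes in RefSeq. The class name therefore need not mean the 5' UTR of the gene named.

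**Figure D5:**
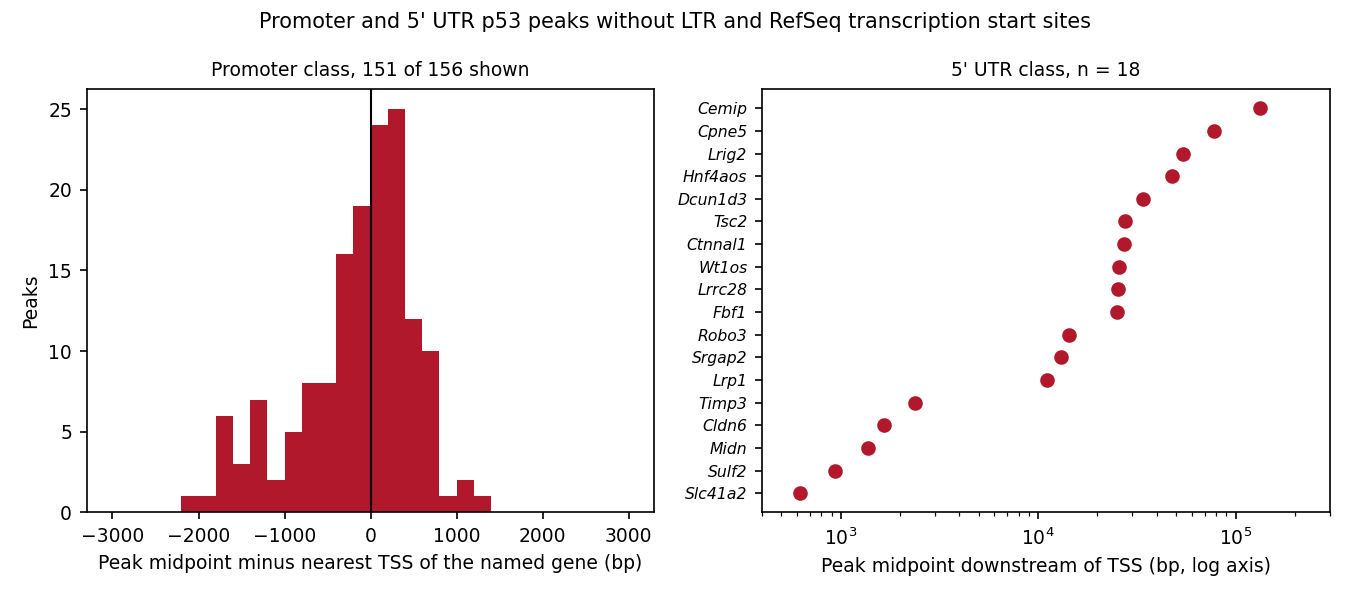
Left, number of promoter-class peaks by distance of the midpoint from the nearest TSS of the named gene among the windows used (bp, negative is upstream), with 151 of 156 in range. Right, the 18 peaks of the 5' UTR class by distance downstream (bp, log axis), with 13 of them beyond 5000 bp.

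The gene named at a peak was not always the one whose promoter window it overlapped. The 304 peaks carried 298 names, of which 210 matched a RefSeq gene, 195 of them protein-coding, and 82 of the other 88 were clone names. In 23 cases the peak overlapped only the promoter window of a different gene from the one named. Where the name was a clone name without a RefSeq match, or its gene had no window among those used, there was no window of its own to compare. Examples are the peak named Prcp, 1083 bp long, which overlapped the window of Ddias, an apoptosis suppressor gene, that of RP23-359F12.1 (1141 bp) at Dglucy, RP23-226H21.3 at the small GTPase gene Rab21, RP24-88J19.1 at the Polycomb gene Eed, and Map3k12 at Tarbp2, a gene of small RNA processing. A further 10 peaks overlapped the windows of their own gene and of another, among them Nudcd2 with Hmmr, a spindle gene (1046 bp), Aen with Gm39039, Ckap2 with Gm29878 and Gmpr2 with the ubiquitin-like gene Nedd8 (214 bp). At these shared promoters a peak cannot be given to 1 gene.

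The rule removed LTRs only, and other repeats were described as the authors annotated them. No repeat was listed at 216 of the 304 peaks, 71.1% (65.6 to 76.1), and their median length was 413.5 bp (373 to 464), against 624 bp (570 to 678) for the 88 with a repeat; a longer peak has more room to overlap one. SINEs, short interspersed elements copied from small cellular RNAs, were at 51 peaks, 16.8% (12.8 to 21.5), against 180 of the other 1823, 9.87% (8.54 to 11.3). LINEs, which carry their own reverse transcriptase, were at 6, 1.97% (0.728 to 4.25), against 91, 4.99% (4.04 to 6.09). DNA transposons were at 5, 1.64%, against 1.76% of the others. Low-complexity sequence was at 15, 4.93%, against 1.04% of the others. The rule leaves no LTR at any of the 304, while only 827 of the other 1823 peaks lack one. Shares of the other repeats were not measured among those 827, so these differences cannot be told apart from the rule. Repeats in the long p53 target peaks included B3 and B3A at Dyrk3, PB1D11, ID_B1 and B4 in the first Cdkn1a peak, ID_B1 at Trp53cor1, B1F at Bbc3 and URR1B at Trp53inp1. The midpoint of the peak lay inside a repeat in 32 of the 304.

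Chromosome Y touches these repeat counts. It held 19 of the 304 peaks, 6.25%, against 6 of the other 1823, 0.329%, although the labels give an ovarian source. All 19 were promoter-class peaks of 221 to 689 bp, all were named for clones with no RefSeq match, and 13 of them held a B1_Mus1 SINE of 141 bp, which 1 of the 285 other peaks also held. The midpoints of these 13 lay 49.5 to 180.5 bp to the same side of the B1 centre along the repeat's strand. The full lists had 7 peaks on chromosome Y in KO cells, 0.0715%, and 25 in WT cells, 0.367%. The WT-specific list also had 25 there, but not all were the same intervals: that of RP24-397H13.3 was not identical to a WT peak. Mouse chromosome Y carries gene families in many near-identical copies, so reads there may belong to another copy, and the part of that in these counts was not tested. Without chromosome Y the share with a SINE was 38 of 285, 13.3% (9.61 to 17.8), the share of low complexity 3.51% (1.70 to 6.36), and the median length 464 bp (421 to 514).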

How the data were processed

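Per the labels, p53 CUT&RUN was done on 2 KO and 2 WT samples. The deposited tables hold mm10 peak intervals, 1 list per genotype, with feature and repeat annotation of the WT-specific list. They hold no counts, heights or p-values. Tools listed in the submitters' processing notes are MACS2, Bowtie2, fastp and deepTools; their settings, the rule for WT-specific and the promoter definition are not given in the sources used. If peaks were called on pooled reads, 1 sample could carry a peak.

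Starts were read as 0-based and printed 1-based. The peaks and gene lists were chosen with earlier results of these data known. The text names listed genes with a peak, the 10 longest and 5 shortest peaks, those overlapping a KO peak, genes with 2 peaks, and the best p53 sites. Lists were compared with bedtools 2.31.1 at 1 bp overlap. Shares carry 95% Clopper-Pearson intervals and medians 95% order-statistic intervals, which, like Fisher's exact test, treat peaks as independent and cover counting error only. Promoter windows and gene names are from RefSeq, GRCm38.p6, whose promoter table used here lists no chromosome 18 and lacks some other genes and starts. A result for 1 listed gene is not reported here. The site search was tested on simulated data. Python 3.11.15, numpy 2.4.6, pandas 2.3.3, scipy 1.17.1 and matplotlib 3.10.9 were used. Alternatives covered the feature class, the LTR rule, the overlap rule and the letters of a site.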

Additional observations from a re-analysis of the deposited data

How the results depend on the processing

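No paired analysis was possible because each genotype has 1 peak list for its 2 samples, and for the same reason leaving out each replicate could not be run. The 5' UTR class alone gives 34 peaks. Against only the KO peaks at or above the median KO length, the odds ratio of KO overlap was 2.44 and its unadjusted p passed the threshold (Fisher's exact test, p = 0.0498), against 1.50 with an unadjusted p of 0.225 as reported and ratios of 1.14 to 1.60 with unadjusted p = 0.0859 to 0.714 under the other alternatives. All of these ratios are against the other WT-specific peaks, those with an LTR included. The median length was 413.5 bp over peaks with no repeat. The share of promoter windows with a p53 site was 8.16% with at most 2 letters off and 8.58% over all windows of the named genes, and 24.5% and 26.5% with 4 letters off or a spacer of up to 2 bases. The other 23 values stayed on the same side of their threshold or close to the reported value. Leaving out chromosome Y and counting windows of any gene were chosen after seeing the data. Unknown depth limits all of it: a peak missing from 1 list is not shown to be absent from those cells.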

Other observations

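The following 5 genes outside the p53 lists were picked after their values were seen, from no fixed list, and are given as single values. Birc5, which encodes survivin, had a peak of 363 bp with its midpoint 687 bp upstream of the TSS. The mitotic kinesin gene Kif18b had 477 bp, centred 269 bp downstream, and Ccnf, the gene of cyclin F, had 513 bp, centred 494 bp upstream. The retinoblastoma gene Rb1 had 515 bp, and Mybl1, a gene of the Myb family, had 432 bp with a KO peak 118 bp away. The nearest KO peak was 15868 bp away at Birc5, 43204 bp at Kif18b, 81706 bp at Ccnf and 59178 bp at Rb1. These peaks had lengths around the median of the 304. Of the 5, only Kif18b and Ccnf had a searched promoter window at their peak, and neither window held a p53 site with at most 3 letters off.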
